A study of Homo sapiens with 6 samples.

Results

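Histone chaperones escort newly made and recycled histones to DNA, and histone mRNA factors set how much histone is made in S phase. The genes described here are CHAF1A, CHAF1B, ASF1A, ASF1B, NASP, HIRA, DAXX, ATRX, SLBP and NPAT, taken by name. A gene counted as measured where the platform annotation gave a transcript cluster (the array's unit of measurement, covering the probes of one transcribed region) that symbol and no other. By this rule 9 of the 10 genes were measured, among 22375 genes tested in all. The annotation gives the cluster that holds HIRA to C22orf39 as well, so no value is reported for HIRA. RNA came from H1299 parental cells, an established human non-small cell lung carcinoma line known to lack p53 protein. One group had 14 days of 500 nM PD 0332991 in DMSO and the other 14 days of DMSO alone, with 3 arrays each. PD 0332991 (palbociclib) inhibits the kinases CDK4 and CDK6, which phosphorylate the retinoblastoma protein pRB, and the study's title names reactivation of pRB as the aim. Whether the 3 arrays of a treatment were separate cultures is not stated, and the p-values cover no more than the spread among these arrays, which may be technical.

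During DNA replication, H3 and H4 pass from the reserve held by NASP to ASF1A or ASF1B and from there to CAF-1, the complex of CHAF1A, CHAF1B and RBBP4 that loads them behind the fork. Outside replication the variant H3.3 is deposited by the HIRA complex along active genes and by DAXX with ATRX at telomeres and pericentric repeats. NPAT switches on the clustered histone genes when cyclin E and CDK2 phosphorylate it, and SLBP binds the stem-loop that ends their mRNAs in place of a poly(A) tail. Cells that leave the cycle are known to need the replication branch little, while H3.3 deposition continues.

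The promoters of the CAF-1 pair and of the ASF1 pair are shown because the measured changes differed within each pair. They run 5′ to 3′ from 250 bases before the annotated start to 50 after it, from RefSeq on GRCh38.p14. Capitals mark a 7-letter core of the E2F site, TTCCCGC or TTGGCGC on either strand, or the letters TTTGAA of the CHR element, which is common in genes of the late cell cycle.
CHAF1A (chr19:4402390-4402689, plus strand): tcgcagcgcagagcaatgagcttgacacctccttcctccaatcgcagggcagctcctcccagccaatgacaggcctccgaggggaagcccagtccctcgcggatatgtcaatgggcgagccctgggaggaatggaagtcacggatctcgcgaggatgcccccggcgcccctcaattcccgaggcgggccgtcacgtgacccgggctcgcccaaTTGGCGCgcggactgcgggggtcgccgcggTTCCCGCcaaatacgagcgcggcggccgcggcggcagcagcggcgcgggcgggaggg
CHAF1B (chr21:36385142-36385441, plus strand): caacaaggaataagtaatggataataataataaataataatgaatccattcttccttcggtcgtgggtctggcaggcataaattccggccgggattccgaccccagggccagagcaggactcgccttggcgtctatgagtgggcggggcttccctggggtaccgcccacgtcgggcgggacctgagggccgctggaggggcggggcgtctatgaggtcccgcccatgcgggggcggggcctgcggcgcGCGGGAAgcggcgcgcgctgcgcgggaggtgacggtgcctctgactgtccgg
ASF1B (chr19:14136540-14136839, minus strand): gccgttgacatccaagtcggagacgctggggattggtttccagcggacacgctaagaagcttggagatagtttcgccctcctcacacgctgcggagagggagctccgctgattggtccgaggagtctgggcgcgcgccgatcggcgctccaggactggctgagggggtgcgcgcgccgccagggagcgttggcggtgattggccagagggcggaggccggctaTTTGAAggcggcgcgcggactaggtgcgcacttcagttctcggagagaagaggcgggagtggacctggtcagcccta
ASF1A (chr6:118893902-118894201, plus strand): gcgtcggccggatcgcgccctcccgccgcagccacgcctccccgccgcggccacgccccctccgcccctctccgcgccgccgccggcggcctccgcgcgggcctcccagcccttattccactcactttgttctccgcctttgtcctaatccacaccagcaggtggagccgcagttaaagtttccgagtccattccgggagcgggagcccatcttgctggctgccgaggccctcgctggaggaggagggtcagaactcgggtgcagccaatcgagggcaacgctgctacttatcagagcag
CHAF1A held TTGGCGC at positions -37 to -31 from the start and TTCCCGC at -7 to -1. CHAF1B held TTCCCGC once, on the strand opposite to the gene and across its start. ASF1B held neither core but TTTGAA at -27 to -22, and ASF1A held none of the 3. Of 15199 promoters of genes tested, 12% held either core and 12.6% held TTTGAA, each on either strand. The longer E2F letters TTTCCCGC or TTTGGCGC, which contain the cores, were in 2.91% of promoters and in none of these 4. The cores were searched after the longer letters had been. Promoters of NASP, SLBP and NPAT were searched as well and held none of these letters, and HIRA held TTTCCCGC at -45 to -38. DAXX and ATRX had no promoter entry and were not searched. A match or its lack is a description of letters in the window.

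On the 6 arrays the median value was 4.85 to 4.98 on the deposited log2 scale, and Pearson's r across clusters (no replicates of one another) was 0.9925 to 0.9945 within groups. Of the markers of the line, KRT8, KRT18, VIM and CDH2 lay well above the array medians, at 10.4 to 15.1 under PD 0332991 and 10.1 to 15.7 in DMSO. EPCAM, an epithelial surface protein, lay near the medians, at 5.10 under PD 0332991 and 5.02 in DMSO. Of 12 measured markers of blood, endothelial and fibroblast cells, 10 stayed under all 6 array medians in each group, and the summed log2 level was 51.6 to 53.7 under PD 0332991 and 51.2 to 53.7 in DMSO. PECAM1 was called among them, with a change of 0.40 and a mean of 3.93 under PD 0332991 against 3.53 in DMSO. The part of other cells in the changes below was not tested. RNA was measured in bulk, so fewer cells of a kind and less RNA per cell cannot be told apart.

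With PD 0332991 CHAF1A, CHAF1B, ASF1B, NASP, SLBP and DAXX fell, ATRX rose, and ASF1A and NPAT did not pass the test. Of the 9 measured genes, 6 fell and 1 rose at a limma adjusted p under 0.05. Of all genes tested, 38.1% were called by the same rule, 18.5% lower and 19.6% higher. CHAF1B, ASF1B, CHAF1A and NASP fell by at least 1 on the log2 scale, which 5.43% of all genes did, and ATRX rose by at least 1, which 4.52% did. The median change was -0.85, against 0.00 over all genes. The groups did not overlap in 8 of the 9, against 47.5% of all genes. All 9 lay above the array medians on every array: their lowest value, 7.11 for CHAF1B under PD 0332991, exceeded the highest upper quartile of an array, 6.76. Levels of different genes are not set against each other here, because probes differ in brightness.

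**Figure D1:**
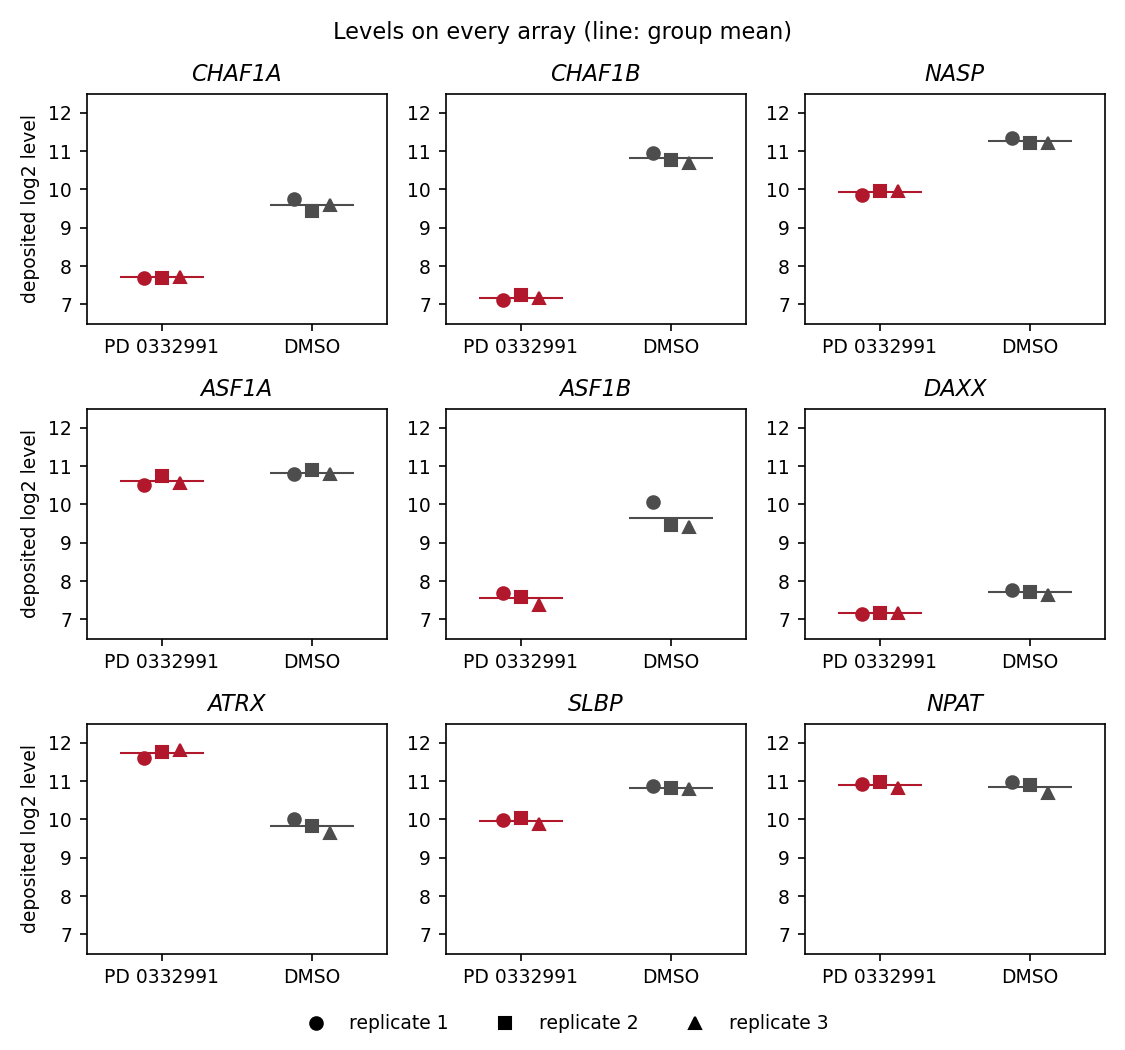
Deposited log2 level (vertical axis) of the 9 measured genes on each array of PD 0332991 (red) and DMSO (grey); marker shapes stand for replicates 1 to 3 and lines for group means. The groups overlap in NPAT alone, and in ATRX alone every PD 0332991 value lies above every DMSO value.

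Of the CAF-1 subunits, CHAF1B and CHAF1A fell, CHAF1B further on the deposited scale, and RBBP4 did not pass. CHAF1B, the middle subunit, read 7.11, 7.24 and 7.17 under PD 0332991 against 10.96, 10.77 and 10.69 in DMSO. Its change was -3.63 ± 0.09 (SE, n = 3 per group; limma adjusted p = 6.06e-08), the deepest of the 9 and larger in size than that of 99.5% of genes. The gap between the groups was 3.45, many times the range within either group (0.12 and 0.27). CHAF1A, the large subunit that binds the replication clamp PCNA, read 7.70, 7.70 and 7.72 under PD 0332991 against 9.74, 9.44 and 9.59 in DMSO. It fell by 1.89 ± 0.09 (adjusted p = 1.25e-06), with no overlap between the groups. RBBP4, the third subunit, which also serves other chromatin complexes, averaged 12.49 ± 0.06 under PD 0332991 and 12.61 ± 0.12 in DMSO (SD, n = 3 each), and its change of -0.12 did not pass (adjusted p = 0.313). PCNA fell by 3.86 ± 0.12, to 6.84 under PD 0332991, against 10.70 in DMSO.

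The reserve keeper and the proliferation-linked donor fell as well. NASP, which shields soluble H3 and H4 from degradation, read 9.86, 9.97 and 9.96 under PD 0332991 against 11.34, 11.22 and 11.21 in DMSO. Its change was -1.33 ± 0.07 (adjusted p = 3.05e-06), and the gap between the groups, 1.24, exceeded the range within either (0.11 and 0.13).
ASF1B, the ASF1 form tied to proliferating cells, read 7.69, 7.58 and 7.39 under PD 0332991 against 10.05, 9.47 and 9.41 in DMSO. It fell by 2.09 ± 0.17 (adjusted p = 2.45e-05), and had the widest spread of the 9 in DMSO, a range of 0.64 with replicate 1 the highest. ASF1A, the form that also serves the HIRA complex, read 10.51, 10.73 and 10.57 under PD 0332991 against 10.80, 10.89 and 10.79 in DMSO. The ASF1A groups lay 0.07 apart without overlap. Its change of -0.23 ± 0.08 missed the threshold (adjusted p = 0.0581) and passed in 7 of 17 alternative settings, with adjusted p 0.00457 to 0.0414 in those. With quantile normalization the ASF1A change was only -0.08 (adjusted p = 0.398), and with all transcript clusters in the fit the adjusted p was 0.174. Without PD 0332991 replicate 2 the ASF1A change was -0.29 (adjusted p = 0.0238).

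The pair that places H3.3 at repeats split: DAXX fell and ATRX rose. DAXX, the chaperone of the pair, read 7.14, 7.16 and 7.17 under PD 0332991 against 7.77, 7.72 and 7.65 in DMSO. Its change was -0.56 ± 0.07 (adjusted p = 0.00022), small beside those of CHAF1A and CHAF1B but with a gap of 0.48 between the groups. ATRX, the ATP-driven remodeller, read 11.61, 11.77 and 11.80 under PD 0332991 against 10.00, 9.82 and 9.64 in DMSO. It rose by 1.91 ± 0.11 (adjusted p = 3.35e-06), which ranked 208 by rise among the 22375 genes.
Every ATRX value under PD 0332991 lay at least 1.61 above every DMSO value. For the HIRA complex, whose scaffold has no value here, CABIN1 rose by 0.56 ± 0.07 (adjusted p = 0.000399), while UBN1 and UBN2 had changes of -0.13 (0.479) and 0.25 (0.0661). UBN2 passed in 5 alternative settings, at adjusted p 0.00872 to 0.0489, 1 of them without PD 0332991 replicate 1 (0.0437).

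Of the histone mRNA factors, SLBP fell and NPAT did not pass. SLBP read 9.99, 10.03 and 9.88 under PD 0332991 against 10.86, 10.82 and 10.78 in DMSO. Its change was -0.85 ± 0.07 (adjusted p = 2.85e-05), and the gap of 0.75 exceeded the range in either group (0.15 and 0.08). NPAT read 10.92, 10.98 and 10.81 under PD 0332991 against 10.98, 10.89 and 10.68 in DMSO. The NPAT groups overlapped, with a change of 0.05 (0.055 before rounding) and a 95% interval from -0.16 to 0.27, so a fall as large as that of SLBP lay outside it. Centring each array on its median, array weights and leaving out DMSO replicate 3 turned the sign of this small NPAT difference.

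**Figure D2:**
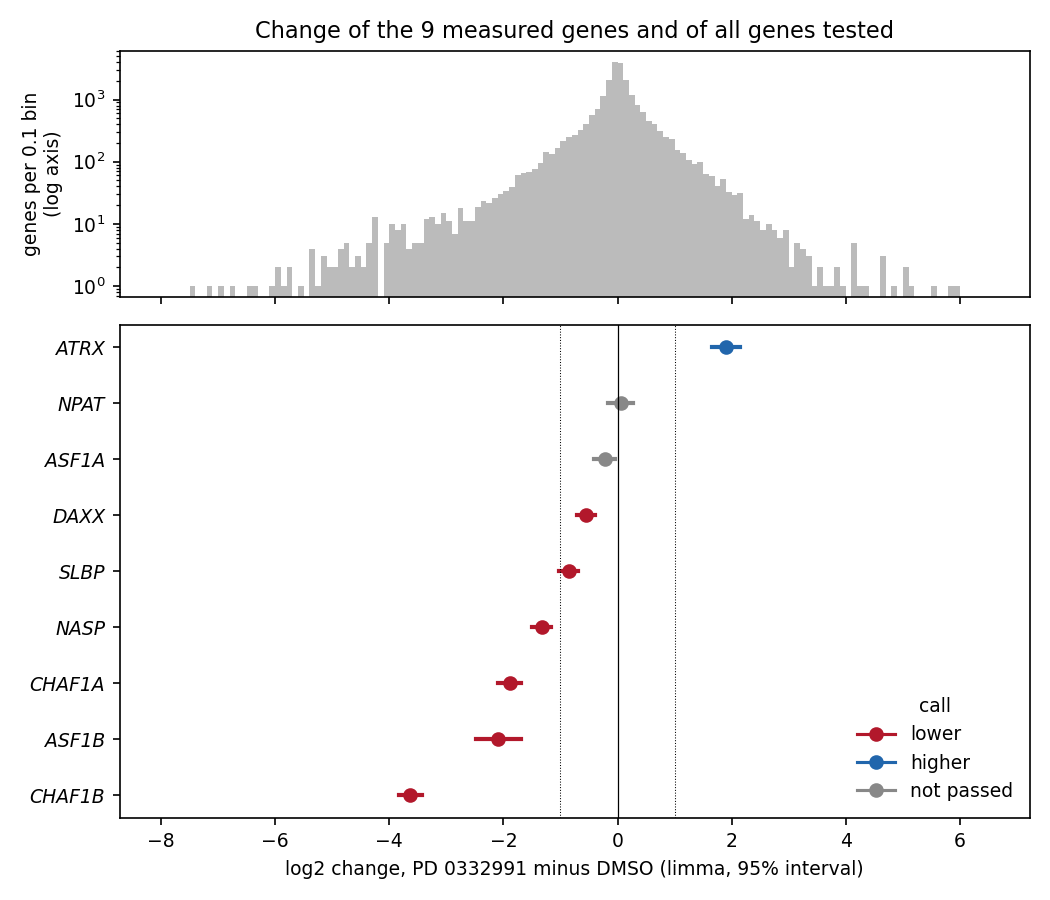
Upper panel: number of genes (log axis) per 0.1 of log2 change, PD 0332991 minus DMSO, over the 22375 genes tested. Lower panel: change of each measured gene with its 95% limma interval, coloured by call, with dotted lines at -1 and 1; CHAF1B is lowest at -3.63 and ATRX highest at 1.91.

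In order of change the 9 genes ran CHAF1B, ASF1B, CHAF1A, NASP, SLBP, DAXX, ASF1A, NPAT and ATRX. Neighbours were compared by the difference between the genes on each array, with a 95% interval from the linear model over the 6 arrays. The order came from these same values, so the sign of each difference was set in advance. The intervals are not adjusted for the number of neighbours and are a description, not a test of the order. ASF1B and CHAF1A were not separated, with a difference in change of 0.20 (-0.26 to 0.67). CHAF1B lay 1.54 (1.09 to 1.99) below ASF1B, and ATRX lay 1.85 (1.59 to 2.11) above NPAT. The other neighbours lay 0.28 to 0.56 apart, and their intervals ended above 0, that of ASF1A and NPAT barely.

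Partners differed in how far their measured values moved. Whether the probes of 2 genes respond alike to the same change in RNA was not tested. The change of ASF1B minus that of ASF1A was -1.86 (95% interval -2.54 to -1.19). The difference was -1.74 (-1.95 to -1.54) for CHAF1B minus CHAF1A, -2.46 (-2.71 to -2.22) for DAXX minus ATRX and -0.91 (-1.09 to -0.73) for SLBP minus NPAT. In each of the 4 pairs the PD 0332991 arrays lay apart from the DMSO arrays, and the two-sided exact permutation p was 0.10, the smallest that 3 arrays against 3 can give, before and after adjustment over the 4 pairs. The design cannot reach 0.05 by this test, and no interval included 0.

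**Figure D3:**
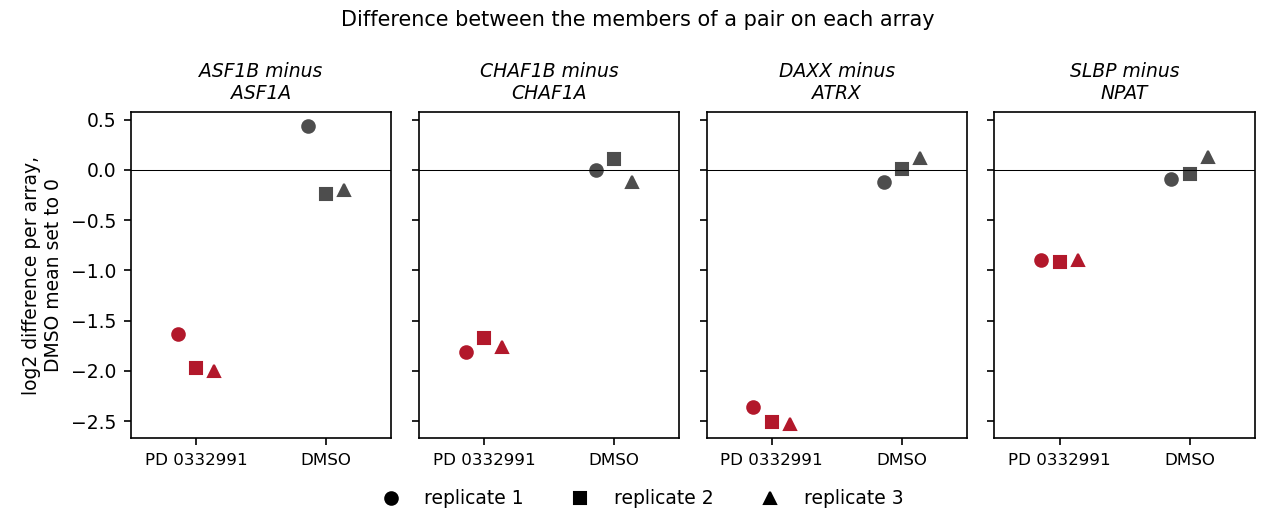
Difference in log2 level between the members of each pair on every array (vertical axis), shifted so that the DMSO mean is 0; PD 0332991 arrays in red, DMSO arrays in grey. The PD 0332991 arrays lie below all DMSO arrays in each pair, by -0.91 on average for SLBP minus NPAT and by -2.46 for DAXX minus ATRX.

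The arrays of a group did not carry the members evenly. DMSO replicate 1 held the highest DMSO value in 8 of the 9 genes, with a median excess of 0.126 over the DMSO mean, and PD 0332991 replicate 2 held the highest value of its group in 5. How often these arrays read highest over all genes was not counted. Each had the lowest median and the highest upper quartile of its group over all clusters (4.85 and 6.71 for DMSO replicate 1, 4.86 and 6.76 for PD 0332991 replicate 2). The same 2 arrays stood apart from the other 4 on principal component 2 (4.89% of the variance). Without both arrays 8 of the 9 genes were called, the 7 named above and ASF1A, at a change of -0.30 (adjusted p = 0.036).

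The profiles over the 6 arrays most like those of the 3 members with the largest changes were found by root-mean-square distance, after each gene's mean was subtracted. For CHAF1B they were CENPI (0.035), CDCA7 (0.058) and CENPE (0.058). For ASF1B they were PLAUR (0.078), IPO4 (0.088) and CA2 (0.099), and for ATRX they were HERC2P3 (0.038), HERC2P2 (0.051) and IL13RA1 (0.062). HERC2P3 and HERC2P2 are related pseudogenes, and probes of such copies may read each other's transcripts. The 2-group design sets most of this likeness, which is a description.

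The other H3-H4 chaperones and their partners went both ways. Of 17 measured, 8 fell, 4 rose and 5 did not pass, with a median of -0.13. Beside this count and those of the lists that follow stand the shares over all genes tested, 18.5% lower and 19.6% higher. Those shares include genes near and below the array medians. HJURP, the chaperone of the centromeric variant CENP-A, fell by 5.17 ± 0.07, to 7.25 ± 0.07 under PD 0332991, against 12.42 ± 0.05 in DMSO (SD, n = 3 each; limma adjusted p = 8.94e-09). MMS22L, which works with TONSL on new histones at forks, fell by 2.68 ± 0.10. SUPT6H, a histone chaperone of transcription elongation, rose by 1.22 ± 0.09, and TLK2, a kinase that phosphorylates ASF1, rose by 0.56 ± 0.07. Chaperones of H2A-H2B and linker histones moved in one direction: 12 of 14 measured fell, none rose and 2 did not pass, with a median of -0.83. The FACT subunits SSRP1 and SUPT16H, which open nucleosomes for polymerases, fell by 2.12 ± 0.07 and fell by 0.92 ± 0.07. ANP32E, which removes H2A.Z, fell by 1.37 ± 0.09, and the nucleoplasmin gene NPM3 fell by 1.35 ± 0.10.

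Among 22 measured genes of histone mRNA processing and decay, 15 fell, 1 rose and 6 did not pass, with a median of -0.40. The 3 deepest falls were in SNRPB, an Sm protein of U7 and of the spliceosomal particles, CSTF2, a cleavage factor also used for polyadenylated mRNAs, and ERI1, an exonuclease that binds histone mRNA ends with SLBP. They fell by 1.80 ± 0.09, fell by 1.74 ± 0.07 and fell by 1.37 ± 0.07. Among parts that act on histone mRNAs, LSM11 of the U7 particle fell by 0.42 ± 0.12 (adjusted p = 0.027), CASP8AP2 (FLASH) of the histone locus body fell by 0.37 ± 0.08 (0.00517) and the U7-binding protein ZNF473 fell by 0.23 ± 0.08 (0.0496), while LSM10 had a change of -0.25 (0.0975). The ZNF473 call was lost without any single array except PD 0332991 replicate 1 (0.0752 to 0.158), and the LSM11 call without DMSO replicate 2, PD 0332991 replicate 2 or PD 0332991 replicate 3 (0.0764 to 0.0971). Both were also lost with all transcript clusters in the fit (0.156 for ZNF473 and 0.0765 for LSM11) and without DMSO replicate 1 and PD 0332991 replicate 2 together (0.155 and 0.114), and ZNF473 with the replicate block (0.107). LSM10 passed without DMSO replicate 2 (0.036) and with median centring (0.0278). TUT7, which adds uridines to histone mRNAs before decay, rose by 0.28 ± 0.07 (0.0155), a call lost with median centring (0.0817) and with all transcript clusters in the fit (0.0729).

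All 6 measured regulators of NPAT and SLBP fell, with a median of -3.48. CCNA2 and CDK1, whose products mark SLBP for destruction at the end of S phase, fell by 6.76 ± 0.08 and fell by 5.75 ± 0.10. Of the kinase that activates NPAT, CDK2 fell by 2.03 ± 0.09 and the cyclin gene CCNE2 fell by 3.92 ± 0.18, to 4.97 under PD 0332991, which is within the range of array medians, so the size of that fall is uncertain. CCNE1 fell by 0.25 ± 0.07 (adjusted p = 0.0238), a call that held when DMSO replicate 2 was left out and was lost when any of the other 5 arrays was (0.0517 to 0.0735). It was lost as well with quantile normalization (0.0871), with all transcript clusters (0.101), with the replicate block (0.0685) and without DMSO replicate 1 and PD 0332991 replicate 2 together (0.1). Of 7 measured partners of ATRX, DAXX and PML bodies, 3 rose, 2 fell and 2 did not pass, with a median of 0.16. SP100 and PML, constituents of PML bodies, rose by 1.24 ± 0.08 and 1.23 ± 0.10, and MORC3, an ATPase of the same bodies, rose by 1.00 ± 0.07. TRIM28, a corepressor at silenced repeats, fell by 1.26 ± 0.10, and USP7, a deubiquitinase that binds DAXX, fell by 0.93 ± 0.07.

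The histone genes that these factors serve fell in most cases. Among the S-phase histone genes, 29 were measured: 20 fell, 2 rose and 7 missed the threshold, at a median of -1.60. H1-4 and H2BC10 fell by 4.74 each, and H1-5 fell by 3.90 to 3.79 under PD 0332991, below every array median, so the size of that fall is uncertain. The same holds for H2AC14 and H2BC6, which averaged 4.68 and 4.60 under PD 0332991. H2AC6 and H2BC21 rose by 3.40 ± 0.12 and 1.96 ± 0.17. Of 11 genes listed as replacement or variant histones, 8 were measured and all 8 fell, with a median of -1.08. The deepest falls were H2AX at -4.30, CENPA at -3.32 and H2AZ1 at -2.32. The H3.3 genes H3-3A and H3-3B had no cluster of their own under the naming rule, so those 2 genes have no value here. Histone genes are near-identical to one another, so probes may read several, and the 29 are part of 68 listed.

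**Figure D4:**
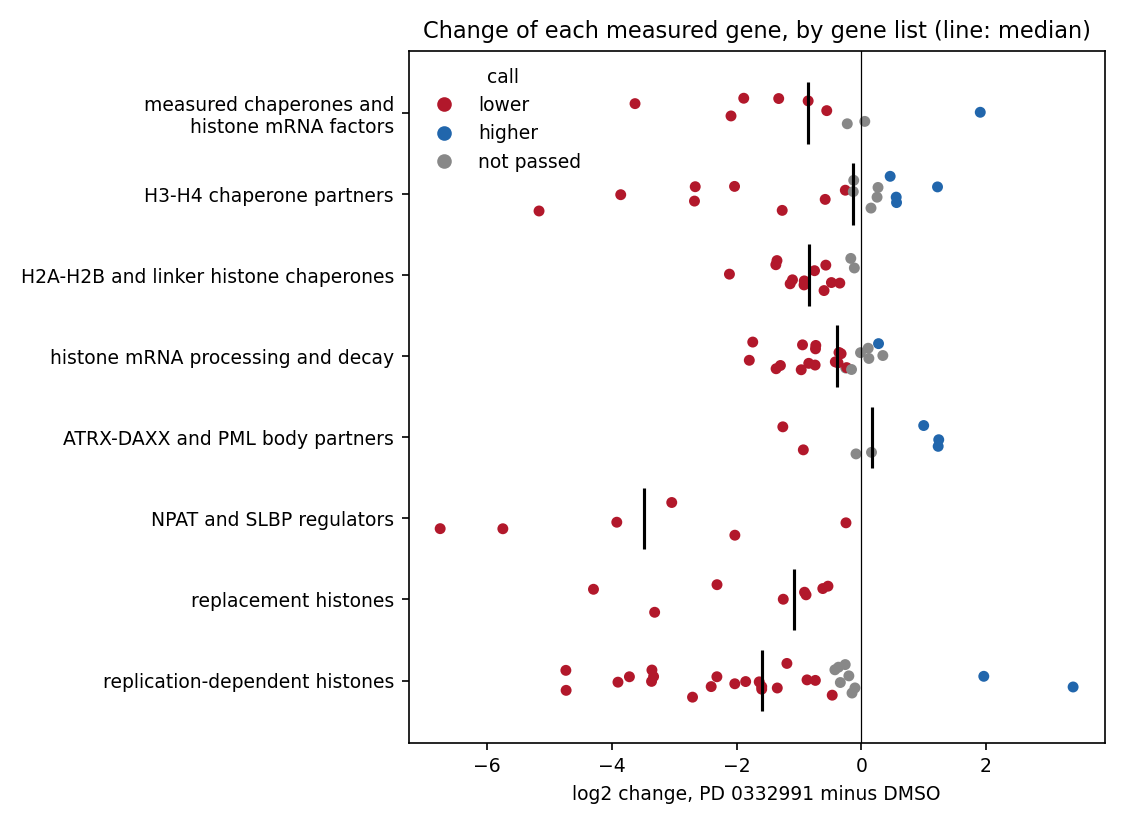
Log2 change, PD 0332991 minus DMSO (horizontal axis), of every measured gene in each list; points are genes coloured by call, black lines are list medians, and vertical scatter within a list has no meaning. Medians run from -3.48 for the regulators of NPAT and SLBP to 0.16 for the partners of ATRX, DAXX and PML bodies.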

How the data were processed

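The authors deposited log2 expression values for 65535 transcript clusters on 6 arrays. Per the submitters' processing notes they used Affymetrix Expression Console; version and settings: not given in the sources used here. Values ran from 1.87 to 19.9, and the scale is not otherwise described, so a change is a difference on that scale, not a ratio of RNA amounts. The table has no detection flags. It may not hold every cluster of the array, which bears on the number of genes tested and on which listed genes have a value. The labels name both a WT Plus and a NuGEN kit, and which prepared the RNA was not settled.

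Of the clusters, 22685 had 1 symbol, 1385 several and 41465 none. Where a gene had several clusters, the one with the highest mean stood for it (296 genes), leaving 22375. Groups were compared with limma 3.58.1 in R 4.3.3 (lmFit, eBayes), two-sided, with Benjamini-Hochberg adjustment over all 22375 genes; the number of arrays limits precision (median SE 0.0875). The fit was tried on simulated data with independent values and few changed genes. These data have many changed genes and deviations shared across an array, so that run does not show how reliable the calls here are. Members and gene lists were chosen with earlier results of these data known, so no list was tested. Named are all members, a fixed set of partners, and up to 3 rises and 3 falls per list. Alternatives covered scaling, filters, variance model, array weights, replicate block, a minimum change of 1 and left-out arrays.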

Additional observations from a re-analysis of the deposited data

How the results depend on the processing

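Of the 17 alternative settings, each kept the falls of CHAF1A, CHAF1B, ASF1B and NASP and the rise of ATRX past the threshold, and 5 to 8 of the 9 genes were called. Requiring a change of more than 1 took the call from DAXX and SLBP (adjusted p = 1 for each) and left 1238 genes in all, against 8529. It left 5 calls among the H3-H4 chaperone partners, 2 among the H2A-H2B and linker histone chaperones, 4 in histone mRNA processing, 3 among replacement histones and 0 among the partners of ATRX, DAXX and PML bodies by limma's treat, where 3 had an unadjusted p under 0.05. ASF1A passed in 7 settings, and its change shrank to -0.08 with quantile normalization (adjusted p = 0.398). NPAT, never called, turned to -0.02 with median centring, -0.01 with array weights and -0.03 without DMSO replicate 3, and ranged from -0.03 to 0.12 as each array was left out. Leaving out each array in turn gave 7 to 8 called members and 7483 to 8075 called genes.

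With the replicate block, 7 of the 9 genes and 7708 of all genes were called, and 2 of the partner genes named lost their call, CCNE1 (0.0685) and ZNF473 (0.107). The same-numbered arrays of the 2 groups deviated together with r of -0.329, -0.147 and 0.098 over genes, so the numbers do not show pairing. The number of arrays and the unknown background limit what can be said of genes near the array medians. The motif share moved to 2.11% and 0.822% with each of the longer E2F motifs alone.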
